A study of Mus musculus with 20 samples.

Results

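The comparison described here is between the hearts of old mice fed a mixture of alpha- and gamma-tocopherol and the hearts of old mice fed alpha-tocopherol alone. It uses 10 of the 20 hearts of the series, 5 per diet, taken by the diet in the labels and not by any measured value. All 10 animals were male mice of the B6/C3H F1 hybrid strain (B6C3F1), housed singly and 30 months old, and both diets began at 15 months. The mixed diet held 500 mg/kg of alpha-tocopherol and 500 mg/kg of gamma-tocopherol. The other diet held 1000 mg/kg of alpha-tocopherol, so that the total tocopherol was 1000 mg/kg in both. The dose of alpha-tocopherol therefore differed together with the presence of gamma-tocopherol, and these cannot be told apart in this design. Levels in 5 hearts of unsupplemented 30-month-old males and 5 of unsupplemented 5-month-old males are given for reference; the labels leave F1 out of the strain name of 2 of the old ones. Polyadenylated RNA from each frozen heart was hybridised to 1 oligonucleotide array, so each value below is from 1 animal.

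Tocopherols are the saturated-tail forms of vitamin E, and gamma-tocopherol lacks a ring methyl group that alpha-tocopherol carries. Both donate a hydrogen atom to lipid peroxyl radicals and so break chains of lipid peroxidation in membranes. Alpha-tocopherol is the form kept in plasma and tissues by the hepatic tocopherol transfer protein, whereas gamma-tocopherol, the common form in many seed oils, is cleared faster and also traps reactive nitrogen species. The heart draws on tocopherol delivered by lipoproteins, in a tissue dense in mitochondria and rich in oxidisable lipid.

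Intensities are linear and were analysed as log2(intensity + 58), where the added constant damps the noise of dim probe sets and makes their differences smaller. A difference is always both tocopherols minus alpha-tocopherol on that scale, and is given ± its standard error with n = 5 hearts per group. The arrays carried the RNA of heart muscle. Over the 10 supplemented hearts, Myh6 (alpha-myosin heavy chain) lay between 64545 and 110531, Tnni3 (cardiac troponin I) between 86122 and 138089, and Myl7 (the atrial light chain) between 30915 and 52587, in each case above at least 98.8% of probe sets on its array. The labels do not say which chambers were sampled. In whole tissue, fewer cells of a type and less RNA per cell cannot be told apart.

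Some array measures differed between the diets. The bacterial hybridization controls, which are spiked in before hybridisation, averaged 13.03 ± 0.36 (SD, n = 5; mean log2 value) with both tocopherols and 13.59 ± 0.17 with alpha-tocopherol, a difference of -0.57 (exact two-sided permutation test, adjusted p = 0.016 over 6 measures). The 18S rRNA controls averaged 11.26 ± 0.90 and 12.39 ± 0.21, a difference of -1.14 (exact permutation test, adjusted p = 0.016), with no overlap between the 5 hearts of either diet. Animals 3 and 4 of the mixed group lay apart in 18S rRNA, at 10.76 and 9.90 against 11.73 to 11.98 in the other 3, and animal 5 had the lowest hybridization controls of its group, 12.39 against 13.10 to 13.32. The share of probe sets below an intensity of 58 was 9.61% ± 0.44 with both tocopherols and 8.32% ± 0.29 with alpha-tocopherol (exact permutation test, adjusted p = 0.016), while the array median differed by 0.01 (adjusted p = 0.70, same test). The Gapdh 3′ minus 5′ difference, a sign of RNA quality and labelling, was -0.12 ± 0.07 with both tocopherols and 0.04 ± 0.10 with alpha-tocopherol, a difference of -0.15 with overlapping groups (exact permutation test, adjusted p = 0.024). The same measure for Actb differed by -0.09 (exact permutation test, adjusted p = 0.21). The part of these 2 ratios in the results below was not tested. Both control levels lay nearer to the old unsupplemented hearts (12.74 and 10.74) in the mixed group than in the alpha-tocopherol group.

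**Figure D1:**
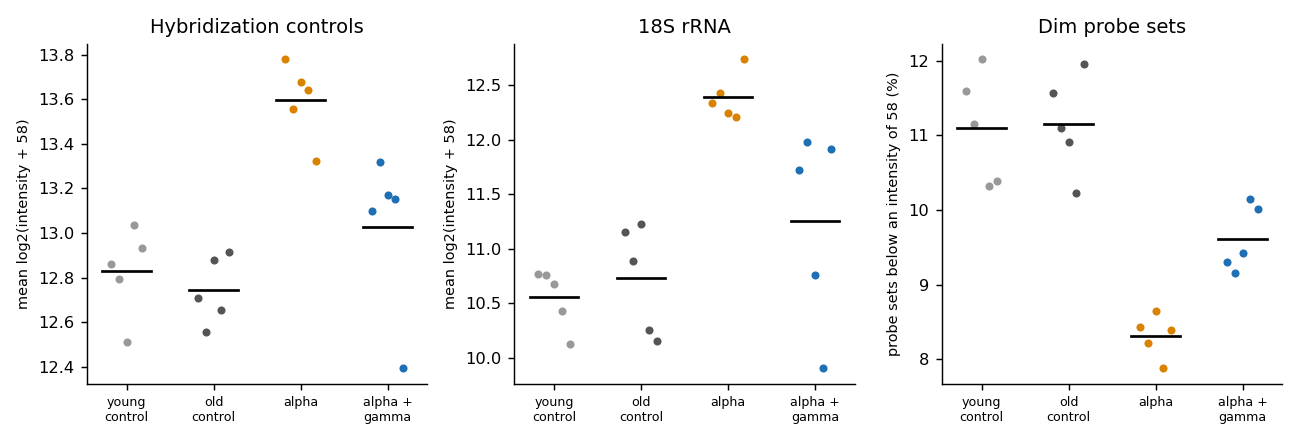
Array measures in the 20 hearts: mean log2(intensity + 58) of the hybridization controls (left) and of 18S rRNA (middle), and the percent of probe sets below an intensity of 58 (right). Each point is 1 heart and the bar is the group mean; for 18S rRNA the alpha-tocopherol hearts sit between 12.21 and 12.74 and the hearts given both tocopherols between 9.90 and 11.98.

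Of 7453 probe sets tested with limma over all 20 arrays, 42 (0.564%) differed between the diets at a Benjamini-Hochberg adjusted p below 0.05. Of these, 23 (0.309%) were higher and 19 (0.255%) were lower with both tocopherols. The calls sat close to the threshold, with adjusted p between 0.031 and 0.045, and their absolute differences ran from 0.40 to 1.85. They carried 37 distinct named genes, and 26 of the 5663 named genes (0.459%) were called at the brightest tested probe set of the gene, 15 higher and 11 lower. At that probe set 2989 of the 5663 lay above 0 and 2674 below 0, the background for the counts in lists that follow. The 5 hearts of one diet lay wholly above or below the 5 of the other for 291 probe sets (3.90%), which included 33 of the 42 called. For scale, the same fit called 1619 probe sets (21.7%) between alpha-tocopherol and old unsupplemented hearts and 479 (6.43%) between both tocopherols and the same controls; these comparisons share samples with the one described here and are given only as levels.

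The number of calls was not stable. It was 11 of 12422 (0.0886%) when dim probe sets were kept, 64 under a stricter filter on dim probe sets, and 0 when only the 10 supplemented hearts were fitted (limma, 1071 at an unadjusted p below 0.05, against 1183 over 20 arrays). It was also 0 when the hybridization controls entered the model as a covariate (820 at an unadjusted p below 0.05) and when 18S rRNA did (587). With these covariates the 42 differences were 0.75 to 1.52 and 0.22 to 1.23 times their size in the main fit. Neither control level overlapped between the diets, so the level and the diet cannot be told apart in these fits. Leaving out 1 alpha-tocopherol heart gave 18 (animal 1), 41 (animal 2), 1 (animal 3), 13 (animal 4) and 1 (animal 5). Leaving out 1 heart of the mixed group gave 24 (animal 1), 79 (animal 2), 3 (animal 3), 0 (animal 4, with 960 at an unadjusted p below 0.05) and 26 (animal 5). The direction of each of the 42 was the same in each of the 22 alternative settings in which its probe set was tested. Each call named below was lost in the settings that left 0 calls.

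**Figure D2:**
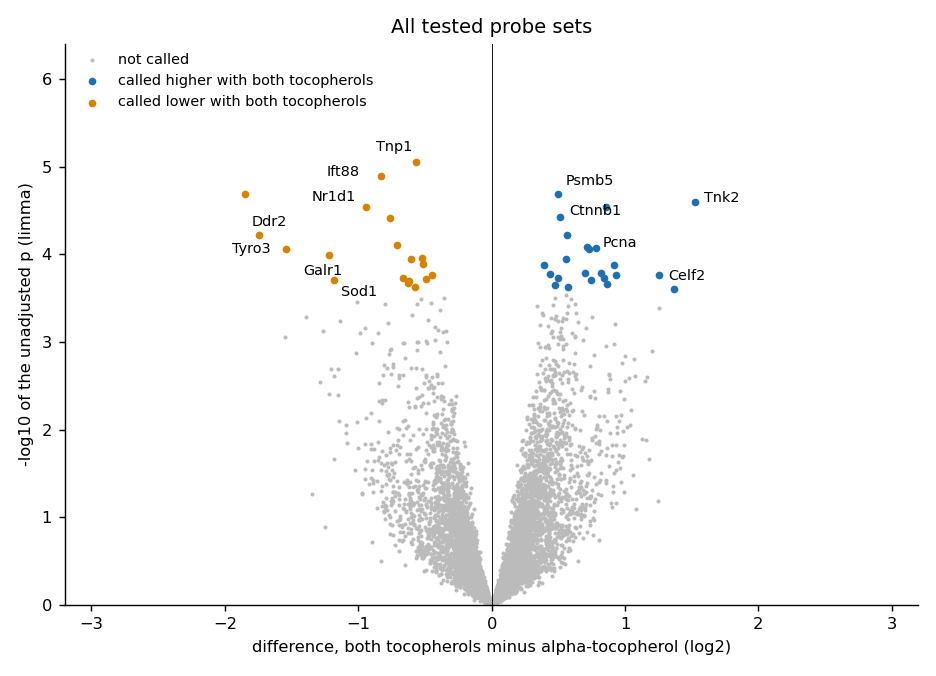
Difference between the diets (x axis, log2, both tocopherols minus alpha-tocopherol) against -log10 of the unadjusted limma p (y axis) for the 7453 tested probe sets. Coloured points are the 23 called higher and the 19 called lower; the calls include Tnk2 at 1.52 and Sod1 at -1.18, and form the edge of a continuous cloud.

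Among antioxidant enzymes, Sod1, the cytosolic copper-zinc superoxide dismutase, was lower with both tocopherols. Its intensity was 35700.3, 49484, 16497, 11558 and 33144 in the 5 hearts given both tocopherols and 61480.0, 59551, 58345, 56887 and 56123 in the 5 given alpha-tocopherol. The alpha-tocopherol hearts were nearly alike and all above the mixed hearts, which spread over a wide range with animals 3 and 4 lowest. The difference was -1.18 ± 0.27 (limma, adjusted p = 0.042), a level 2.27-fold lower. Sod1 kept its call in 6 of 22 alternatives. Old unsupplemented hearts read 7142 to 14704 and young ones 10716 to 11997, below every alpha-tocopherol heart. The 2 hearts with the lowest Sod1 were also the 2 with the lowest 18S rRNA, and with the 18S rRNA level as a covariate the Sod1 difference was -0.26 ± 0.16, whereas with the hybridization control level it was -1.26 ± 0.37.

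The other enzymes that remove superoxide and peroxide did not pass the test. Of 16 tested genes of that list, 1 was called lower and 0 higher, with a median of -0.05 against 0.02 over all named genes. Sod2, the mitochondrial manganese enzyme, differed by 0.01, with a 95% confidence interval from -0.24 to 0.25. The intervals ran from -0.26 to 0.22 for Cat (catalase), from -0.24 to 0.25 for Gpx1 and from -0.16 to 0.22 for Gpx4, the glutathione peroxidase that reduces lipid hydroperoxides in membranes. Gstm1, a glutathione transferase, lay at -0.10 (-0.29 to 0.10). A difference as large as that of Sod1 lay outside each of these intervals, but differences of about 0.2 lay within them in at least 1 direction. The probe sets of Cat and Gstm1 are of the type that shares probes within a gene family. Of 24 tested genes of glutathione metabolism and the NRF2 response, 0 were called and 12 lay above 0.

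No gene of tocopherol and lipoprotein handling passed the test: 0 of 11 tested, with 6 above 0. Scarb1, the lipoprotein receptor that takes up vitamin E from high density lipoprotein, differed by -0.00 (95% interval -0.28 to 0.27). Cd36, a fatty acid and oxidised lipoprotein receptor, read 0.30 (0.00 to 0.60, adjusted p = 0.31 in limma) and Lpl, lipoprotein lipase, 0.08 (-0.16 to 0.33). Abca1, which exports cholesterol and tocopherol, had the highest value of the list, 0.44 ± 0.18 (limma, adjusted p = 0.23), and Sec14l2, a tocopherol-binding protein, the lowest, -0.26 ± 0.33. Among 9 tested enzymes of eicosanoid and nitric oxide synthesis 0 were called. Nos3, the endothelial nitric oxide synthase, read 0.64 with an interval from -0.11 to 1.40, and Ltc4s, leukotriene C4 synthase, was 1297 to 1890 with both tocopherols and 828 to 1266 with alpha-tocopherol, without overlap, at 0.48 ± 0.14 (limma, adjusted p = 0.098).

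Angptl4, a secreted inhibitor of lipoprotein lipase and a target of the fatty acid sensor PPAR-alpha, was lower with both tocopherols. It read 547, 501, 591, 708 and 632 in the mixed hearts and 970.3, 974, 854, 930.5 and 973 in the alpha-tocopherol hearts, so the groups did not overlap. The difference was -0.62 ± 0.14 (limma, adjusted p = 0.042). Old unsupplemented hearts read 702 to 966 and young ones 2531 to 4224. The probe set is of the kind that can match several transcripts, and 2 others for the gene read 0.03 and -0.19, neither called. It was the only call among 30 tested genes of fatty acid oxidation (median 0.01, but 0.22 with the hybridization control covariate and -0.02 with the 18S rRNA covariate), and without any 1 of the 10 hearts it was no longer called. Ppara itself differed by 0.28 (0.01 to 0.54) and Pdk4, a kinase that holds back glucose oxidation, by 0.29 (-0.32 to 0.89), and neither was called.

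Nr1d1, which encodes the heme-binding nuclear receptor REV-ERB-alpha, a repressor in the circadian clock, was lower with both tocopherols. Its intensity was 2809.8, 3666, 2056, 1677 and 2741 in the mixed hearts, against 5547, 3793, 3924, 4934 and 6641 in the alpha-tocopherol hearts. No value of the mixed group reached the lowest of the alpha-tocopherol group. The difference was -0.94 ± 0.18 (limma, adjusted p = 0.031), and old unsupplemented hearts, at 3278 to 4263, overlapped both. With the 18S rRNA covariate the Nr1d1 difference was -0.49 ± 0.18. Of 13 tested clock genes 9 lay above 0, against 2989 of all 5663 named genes. Their median was 0.15 (-0.01 with the 18S rRNA covariate), and Nr1d1 was the only call. Its paralogue Nr1d2 read 0.43 ± 0.20, Per1 0.59 ± 0.33, Arntl (BMAL1) 0.25 ± 0.31 and Dbp, a clock output gene, -0.12 ± 0.30, none of them called. The labels used here give no hour of tissue collection.

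Tnk2, a non-receptor tyrosine kinase also known as ACK1, had the highest difference of all called named genes. It read 587, 496, 258, 267 and 459.6 with both tocopherols and 102, 118, 129.6, 92 and 65 with alpha-tocopherol. The alpha-tocopherol hearts were all dim, close to the constant added before the log, and all below the mixed hearts. The difference was 1.52 ± 0.29 (limma, adjusted p = 0.031), a level 2.87-fold higher on that scale, and the unsupplemented hearts, at 499 to 937 (old) and 478 to 1620.0 (young), were above all 5 alpha-tocopherol hearts. It was the only call among 35 tested kinases and phosphatases of growth signalling, whose median was 0.12 (0.01 with the hybridization control covariate and 0.05 with the 18S rRNA covariate). That list does not hold the called genes Ddr2, Tyro3, Ppm1b and Ptprm, described below. Its lowest member, Uhmk1, read -1.39 ± 0.34 without overlap between the diets and was not called (limma, adjusted p = 0.058).

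Ddr2, a receptor tyrosine kinase for fibrillar collagen found on fibroblasts, was lower with both tocopherols: 237, 374, 153, 314 and 636 against 468.5, 1319, 2023, 1680.0 and 1062. The groups overlapped, because animal 1 of the alpha-tocopherol group read below animal 5 of the mixed group. The difference was -1.74 ± 0.35 (limma, adjusted p = 0.041), and old unsupplemented hearts read 281 to 1034. Beside it, the other 16 tested fibroblast markers had 0 calls. Over the 17 the median was -0.10 (0.10 with the hybridization control covariate), and Pdgfra, the platelet-derived growth factor receptor of these cells, read 0.49 ± 0.23. The summed intensity of the 17 markers was 91151 to 132053 with both tocopherols and 99608 to 139039 with alpha-tocopherol. The collagen genes Col1a1 and Col3a1 read -0.37 (-0.73 to 0.00) and -0.14 (-0.69 to 0.40).

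Tyro3, a receptor tyrosine kinase of the TAM family, read 564, 1007, 234, 393 and 851 with both tocopherols and 1454, 1546, 2410.5, 2507 and 1025 with alpha-tocopherol, without overlap, a difference of -1.54 ± 0.32 (limma, adjusted p = 0.041). Its probe set is of a type that shares probes within a gene family. With the 18S rRNA covariate Tyro3 read -1.04 ± 0.39. P2rx7, an ion channel opened by extracellular ATP, read 1548 to 1939 with both tocopherols and 2212 to 3293 with alpha-tocopherol (-0.60 ± 0.13, limma, adjusted p = 0.042), and old unsupplemented hearts, at 1438 to 1959, covered the mixed group's range. Galr1, a galanin receptor, was 219, 221, 259, 253 and 532 against 1017, 537, 1012, 744 and 508, a difference of -1.22 ± 0.26 (limma, adjusted p = 0.042). The alpha-tocopherol hearts spread widely, and animal 5 of the mixed group overlapped the alpha-tocopherol hearts.

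**Figure D3:**
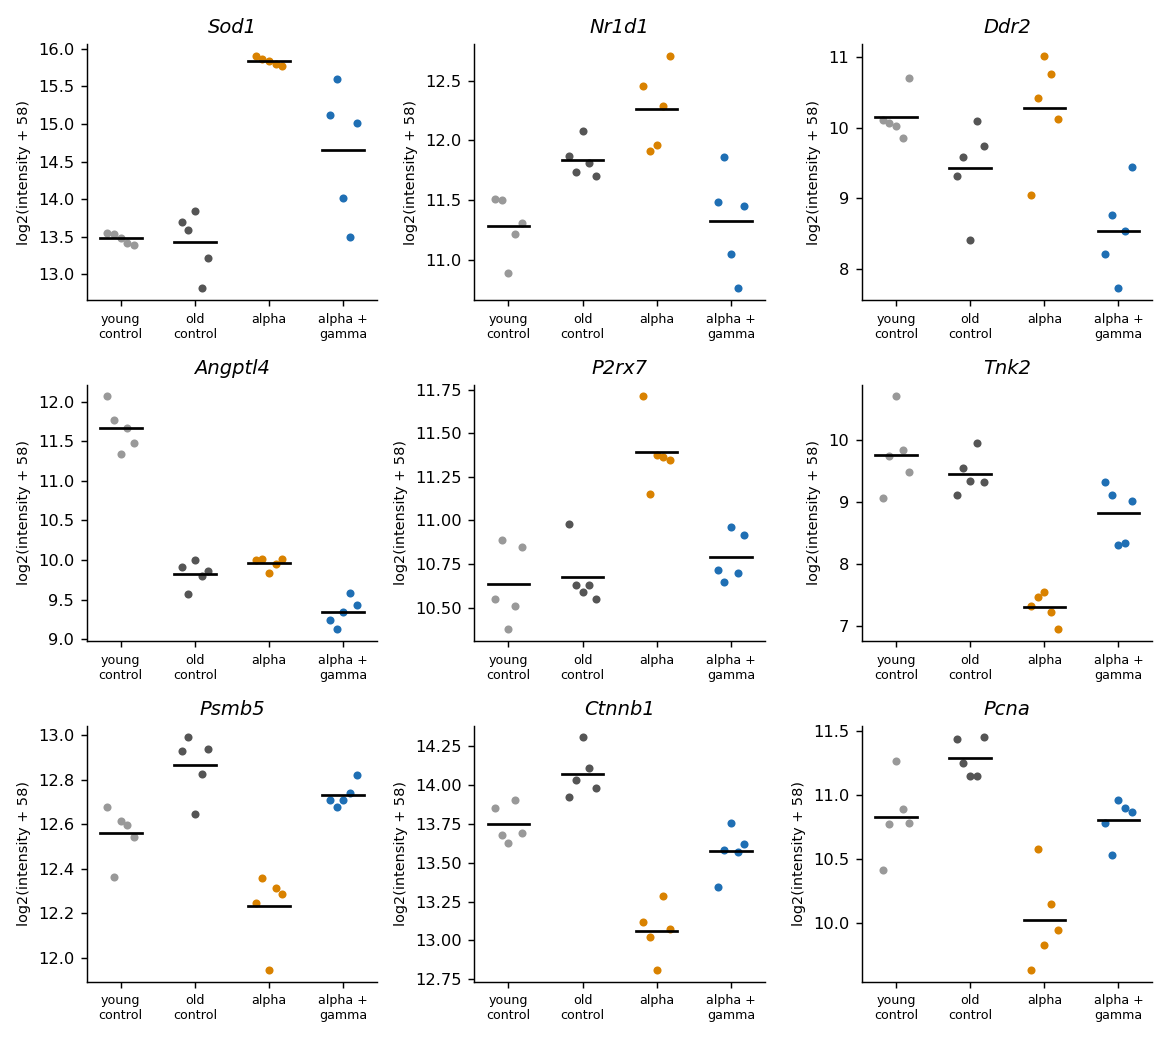
Values of 9 called genes as log2(intensity + 58) in the 20 hearts (5 per group). Each point is 1 heart and the bar is the group mean; the hearts given both tocopherols and those given alpha-tocopherol alone do not overlap except for Ddr2 and Pcna.

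Proteasome subunits included 2 calls. The proteasome degrades ubiquitin-tagged and oxidised proteins, and Psmb5 is the beta subunit with chymotrypsin-like activity in its core. Psmb5 read 6629, 6486, 6646, 6788 and 7178 with both tocopherols and 4805, 5199.7, 3884, 5029.9 and 4942 with alpha-tocopherol. The groups did not overlap and the mixed hearts were close to each other. The difference was 0.50 ± 0.09 (limma, adjusted p = 0.031), at a probe set that can match several transcripts, and the gene's other tested probe set read 0.21 ± 0.25. Psmd6, a subunit of the regulatory particle, read 5221 to 6248 and 3955 to 4738, a difference of 0.40 ± 0.09 (limma, adjusted p = 0.042). Old unsupplemented hearts, at 6350.0 to 8082 for Psmb5 and 6063 to 6737 for Psmd6, were above all 5 alpha-tocopherol hearts.

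Of 34 tested proteasome genes, 2 were called higher and 0 lower. Of the 34, 25 lay above 0, against 2989 of all 5663 named genes. The median of the 34 was 0.12 (0.05 to 0.14 over the alternatives). Psmc6 read 0.41 ± 0.12 and Psmc2 0.29 ± 0.10, with groups that did not overlap but no call. Psmd1, a scaffold subunit of the regulatory particle, lay on the other side at -0.52 ± 0.15 (limma, adjusted p = 0.094), also without overlap. The immunoproteasome genes Psmb8 and Psmb9 read -0.13 ± 0.27 and 0.26 ± 0.38.

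The 250 bases before the annotated start are shown for 3 called genes, Sod1, Psmb5 and Pcna, because they share a short motif: TGACNNNGC, the core of the antioxidant response element bound by NRF2, searched on both strands. Capitals mark the match, and sequences are from RefSeq (GRCm38.p6), 5′ to 3′ on the gene's strand. Sod1 is at chr16:90220512-90220761 (+ strand), Psmb5 at chr14:54617996-54618245 (- strand) and Pcna at chr2:132253181-132253430 (- strand).
Sod1: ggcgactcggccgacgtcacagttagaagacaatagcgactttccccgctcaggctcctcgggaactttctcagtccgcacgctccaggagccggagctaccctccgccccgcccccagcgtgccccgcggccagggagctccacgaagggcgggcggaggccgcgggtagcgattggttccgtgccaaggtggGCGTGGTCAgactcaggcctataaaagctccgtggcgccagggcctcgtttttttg
Psmb5: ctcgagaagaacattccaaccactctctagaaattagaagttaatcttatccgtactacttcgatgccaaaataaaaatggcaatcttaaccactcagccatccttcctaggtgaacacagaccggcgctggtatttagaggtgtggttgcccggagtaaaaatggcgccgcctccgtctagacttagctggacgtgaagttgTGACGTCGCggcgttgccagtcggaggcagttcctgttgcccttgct
Pcna: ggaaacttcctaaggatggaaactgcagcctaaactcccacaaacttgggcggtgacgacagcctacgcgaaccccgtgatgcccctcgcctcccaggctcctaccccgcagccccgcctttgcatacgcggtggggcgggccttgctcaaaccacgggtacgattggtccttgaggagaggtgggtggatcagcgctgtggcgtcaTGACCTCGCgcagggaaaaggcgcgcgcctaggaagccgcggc

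The match begins 56 bases before the start in Sod1, on the opposite strand, and 47 and 43 bases before it in Psmb5 and Pcna, on the printed strand. Of the 37 called genes 34 had an entry, with 48 windows in all, and 10 of these windows (20.8%) held the motif, against 10.2% of all 32851 windows of the same length. The genes were Clip4, Ctnnb1, Itgb1, Mkrn1, P2rx7, Pcna, Psmb5, Rnh1 and Sod1. The 9 genes moved in both directions: Sod1 and P2rx7 were lower and the others higher. The E-box CACGTG, which reads the same on both strands, was in 3 of the 48 windows (6.25%: Hif1a, Pdxk and Rnh1) and in 6.02% of all windows. The window of Nr1d1, also a called gene, held no match to the antioxidant response element core. The windows used for comparison were not limited to the genes tested here, and the difference in share was not tested. A match is a description of these letters and not a site.

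Ctnnb1, beta-catenin, which links cadherins to the cytoskeleton and carries Wnt signals, read 10343, 12215, 13804, 12083 and 12524 with both tocopherols and 8821, 8266, 7117, 9937 and 8551 with alpha-tocopherol. No heart of one diet fell within the range of the other, and the difference was 0.51 ± 0.10 (limma, adjusted p = 0.032). Itgb1, the beta-1 integrin chain, read 18710.1 to 23539.5 and 13965 to 18084, a difference of 0.48 ± 0.11 (limma, adjusted p = 0.043). That probe set shares probes within a gene family, and the other one tested for Itgb1 read 0.16 ± 0.12 and was not called. Old unsupplemented hearts were at 15496 to 20231 for Ctnnb1, above both diets, and at 15192 to 21898 for Itgb1.

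Pcna, the sliding clamp of DNA polymerases in replication and repair, read 1700.1, 1427, 1938, 1849 and 1812 with both tocopherols and 737, 1474, 854, 1077 and 932 with alpha-tocopherol. Animal 2 of the alpha-tocopherol group overlapped animal 2 of the mixed group. The difference was 0.78 ± 0.16 (limma, adjusted p = 0.041), and old unsupplemented hearts read 2218 to 2744. With the hybridization control and 18S rRNA covariates Pcna read 0.60 ± 0.22 and 0.68 ± 0.21. It was the only call among 26 tested p53 targets and cell cycle genes, 17 of which lay above 0 (median 0.06). Of all 5663 named genes, 2989 lay above 0. Rnh1, the ribonuclease inhibitor, read 1567 to 2204 with both tocopherols and 692 to 1832 with alpha-tocopherol, a difference of 0.82 ± 0.18 with overlapping groups (limma, adjusted p = 0.042). With the hybridization control and 18S rRNA covariates Rnh1 read 0.96 ± 0.25 and 0.58 ± 0.23. Its other tested probe set read 0.13 ± 0.25 and was not called.

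Mkrn1, a RING-type ubiquitin ligase, was called higher at both of its tested probe sets, by 0.92 ± 0.20 and 1.37 ± 0.31 (limma, adjusted p = 0.042 and 0.045). The groups overlapped at each, and with the hybridization control covariate the latter probe set read 2.08 ± 0.38. At the latter the alpha-tocopherol hearts were dim, at 112.5 to 187.9. The first probe set kept its call in 9 of 22 alternatives and the latter in only 3. The other calls at a gene's brightest probe set were higher for Strap (0.73), Clip4 (0.72), Osbpl1a (0.57), Ppm1b (0.56), Rab9 (0.50), Prps1 (0.44) and St6galnac6 (0.93). These encode, in order, a protein associated with TGF-beta receptors, a microtubule-binding CAP-Gly protein, an oxysterol-binding-protein relative, a protein phosphatase, a small GTPase of late endosomes, an enzyme of nucleotide synthesis and a sialyltransferase. A second tested probe set read -0.13 ± 0.28 for Osbpl1a, opposite in sign, and 0.60 ± 0.28 for Ppm1b, neither called. With the 18S rRNA covariate Strap read 0.52, Clip4 0.56, Osbpl1a 0.37, Ppm1b 0.36 and Prps1 0.28. Calls were lower for Tmem250-ps (-0.71, and -0.48 with the 18S rRNA covariate), Tnp1 (-0.57), Pdxk (-0.51, pyridoxal kinase) and Tmem234 (-0.49). Tnp1, known as a nuclear protein of spermatids, read 2085 to 2596 with both tocopherols and 3002 to 3936 with alpha-tocopherol through a probe set whose design rules were relaxed. It had the smallest unadjusted p of the comparison, 8.9e-06, and a call in 15 of the 22 alternatives.

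A further 11 genes were called only at a probe set dimmer than the one that represents the gene, and they are named here after their values were seen. Hif1a, the oxygen-sensing transcription factor, read 0.56 ± 0.11 at the called probe set and 0.39 ± 0.12 at the other, and both share probes within a family. Celf2, an RNA-binding protein, read 1.26 and 0.54, Mrps25 of the mitochondrial ribosome 0.86 and 0.23, Ptprm, a receptor phosphatase, 0.84 and 0.31, and Ak3, a mitochondrial adenylate kinase, 0.70 and 0.22, the called probe set first. At the called Celf2 probe set the alpha-tocopherol hearts were dim, at 81.5 to 342.7, the lowest close to the added constant. Mrpl45, also of the mitochondrial ribosome, read -0.52 and -0.35, Ruvbl1, a chromatin-remodelling ATPase, -0.57 and -0.12, and Pcp4l1 -0.76 and -0.07. For 2 genes the probe sets differed in sign, since Lmna, which encodes nuclear lamins A and C, read -0.63 and 0.23, and Ppp1r2, a phosphatase inhibitor, 0.86 and -0.09. Ift88, a protein of transport along cilia, read -0.83 ± 0.15 (adjusted p = 0.031 in limma) and -0.02 ± 0.18, so the level of the gene as a whole was not settled by these probe sets. With the 18S rRNA covariate the called probe sets of Ift88, Pcp4l1, Lmna and Mrpl45 read -0.56, -0.43, -0.36 and -0.34, and that of Hif1a 0.39. The called Ift88 probe set kept the call in 16 of 22 alternatives.

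Genes of contraction and oxidative phosphorylation had 0 calls but lay mostly below 0. Of 13 tested cardiomyocyte markers 12 were below 0, against 2674 of all 5663 named genes. The median of the 13 was -0.23, which shrank to -0.02 with quantile normalisation and -0.06 with the hybridization control covariate. With the 18S rRNA covariate that median was -0.30. Myl2, the ventricular regulatory light chain, was 87359 to 131786 with both tocopherols and 142468 to 206744 with alpha-tocopherol, and Tnni3 was 86122 to 112124 and 119506 to 138089. Neither pair overlapped, but Myl2, at -0.49 ± 0.13, and Tnni3, at -0.34 ± 0.09, were not called (limma, adjusted p = 0.069 and 0.064). Myh6 read -0.30 (-0.52 to -0.08) and Myh7, the slow myosin chain, -0.21 (-0.63 to 0.21). The Myh7 probe set is of the type that shares probes within a gene family. At that probe set animal 1 of the mixed group read 93242, against 40617 to 49595 in the rest of its group. The summed intensity of the 13 markers was 751009.8 to 1031597 with both tocopherols and 1006725 to 1213946 with alpha-tocopherol, and 868860.0 to 995212 in old unsupplemented hearts.

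Of 59 tested genes of oxidative phosphorylation, 45 lay below 0, against 2674 of all 5663 named genes. The median of the 59 was -0.08, which turned to 0.03 with quantile normalisation and to 0.08 with the hybridization control covariate. With the 18S rRNA covariate that median was -0.12. Ndufb8, a subunit of complex I, had the lowest value, -0.38 ± 0.09 (limma, adjusted p = 0.056), and Sdha, a subunit of complex II, the highest, 0.36 ± 0.17. The natriuretic peptides Nppa and Nppb, secreted by stretched heart muscle, read -0.11 (-0.38 to 0.17) and -0.49 (-1.02 to 0.04). Among markers of other cell types, 0 of 18 endothelial markers (median 0.04, up to 0.17 with the hybridization control covariate) and 0 of 19 macrophage and myeloid markers (median 0.02, from -0.07 to 0.20 over the alternatives) were called. Their summed intensities were 57758 to 62932 and 26094 to 48733 with both tocopherols, against 49856 to 57099 and 29482 to 46272 with alpha-tocopherol, so the endothelial sums did not overlap and the macrophage sums did. A sum is weighted to its brightest members, and the sums were not tested. Groups without overlap were seen for 3.9% of all tested probe sets. Alb, the liver protein albumin, was dim in 9 of the 10 hearts, at 56 to 231, with animal 5 of the mixed group at 641.

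**Figure D4:**
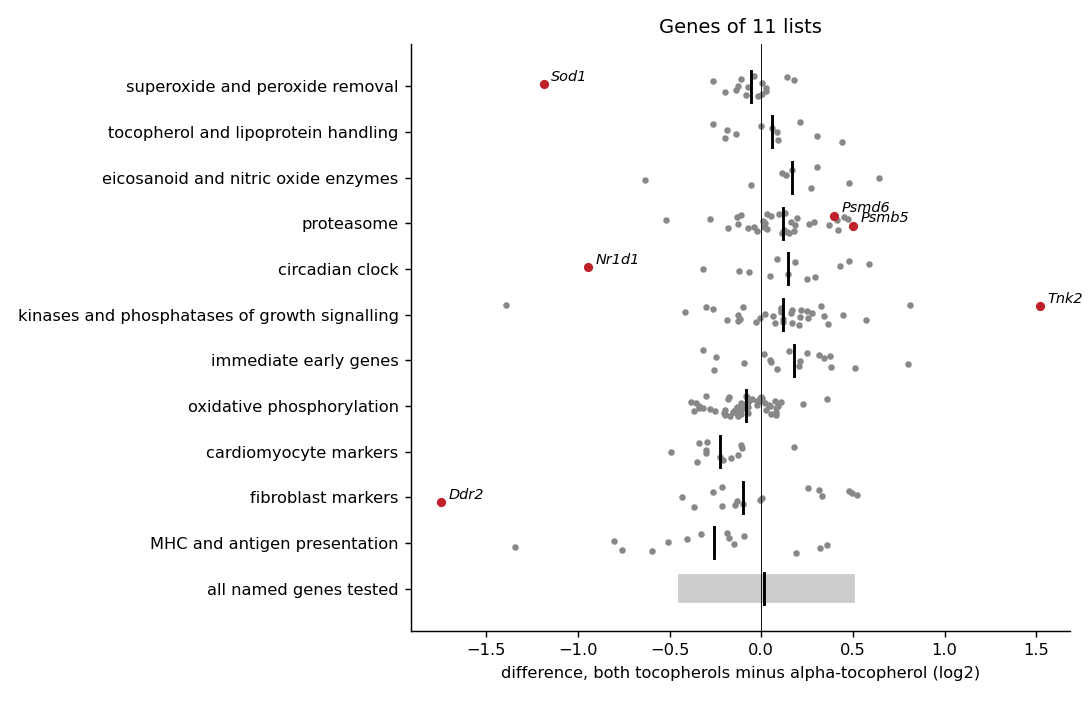
Difference between the diets (x axis, log2) for the tested genes of 11 lists, 1 point per gene at its brightest tested probe set; black bars are medians and red points are called genes. The grey band spans the 5th to 95th percentile of the 5663 named genes, -0.45 to 0.50. Below 0 lie 12 of 13 cardiomyocyte markers and 2674 of the 5663 named genes. Above 0 lie 25 of 34 proteasome genes and 2989 of the 5663 named genes.

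The intervals describe the difference between the 2 groups of arrays in the fit without a covariate. They do not allow for the array measures that differed between the diets. With the hybridization control and 18S rRNA covariates the standard errors of the 42 calls were typically 1.40 and 1.3 times as large. The median half-width of the 95% confidence interval was 0.37, and the interval lay within ±0.5 for 2835 probe sets (38.0%) and within ±1 for 6351 (85.2%). A difference larger than 1 in size was estimated for 47 (0.63%). For most probe sets, then, a change beyond 1 on the log2 scale lay outside the interval, while the interval of most also reached past 0.5 in size. Only 1 pair of supplements was compared, at matched total dose and unmatched alpha-tocopherol dose.

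**Figure D5:**
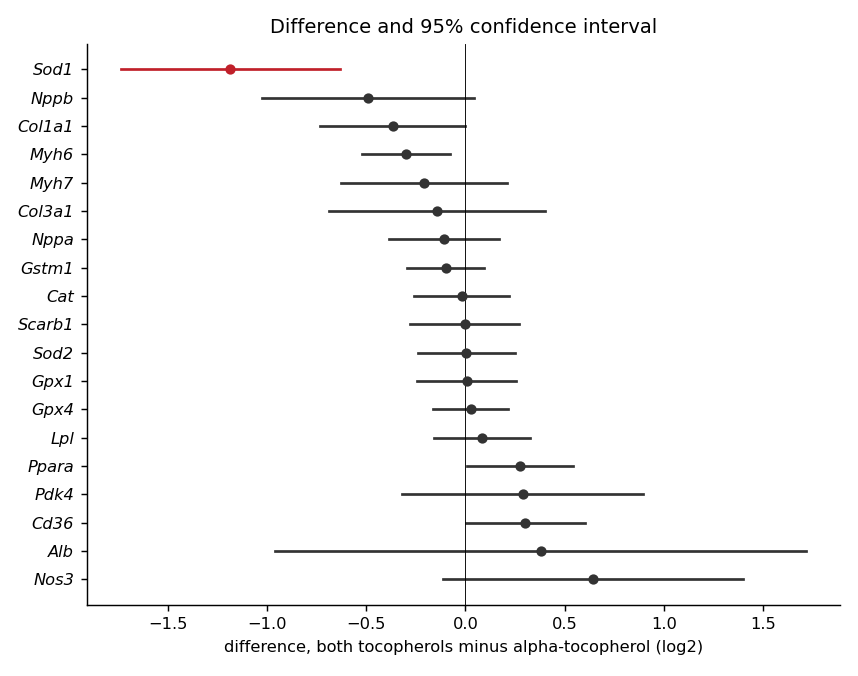
Difference between the diets (x axis, log2, both tocopherols minus alpha-tocopherol) with its 95% confidence interval for 19 genes of antioxidant defence, lipid handling, contraction and matrix. Sod1 (red) is the only call, at -1.18; the intervals of Gpx4 and Sod2 lie within ±0.3 and that of Alb spans -0.96 to 1.72.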

How the data were processed

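The labels give 20 hearts in 4 groups of 5 separate animals, each on its own array. Per the labels' protocols, RNA from frozen tissue was enriched for polyadenylated molecules, copied into biotin-labelled RNA and fragmented. The authors deposited a linear intensity for each probe set of each array; how it was computed is not given in the sources used. The deposited intensity values share a trimmed mean of 1501 (2% left out at each end) over the arrays, and no detection calls were used.

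Of 12422 probe sets that are not controls, 10833 had 1 symbol in the platform annotation, 396 several and 1193 none; those with 1 symbol are named. The deposited values were turned into log2(intensity + 58) here without further scaling. After the dimmest 40% by mean were set aside, limma 3.58.1 (R 4.3.3) was fitted to the 4 group means, with trended and robust eBayes and 16 residual degrees of freedom. Two-sided p-values were adjusted by Benjamini-Hochberg over the 7453 tested probe sets, and values below 0.05 were called. The fit was checked on simulated data. Where a gene had several tested probe sets (909 genes), the brightest stands for it. For array measures, exact permutation tests were used, and 5 against 5 arrays allow no p below 0.0079. Precision is limited by how many arrays there are.

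The comparison and the gene lists were chosen with earlier results of these data known, and a list is described by counts and medians without a test. The rule for names took up to 15 called genes per direction at their brightest probe set, up to 3 from any list with at least 3 calls, and fixed genes, of which 19 were tested; names beyond it are said to be so or come from the lists. Alternatives changed the added constant, the filter, the scaling, the fit, a covariate, a block or the hearts used.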

Additional observations from a re-analysis of the deposited data

Results flagged for a closer look

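Of 146 groups of 5 hearts examined for a heart set apart from the other 4, 11 (7.53%) had one, where chance gives about 1 in 20. In the mixed group, animal 5 was high for Galr1 (531.7 against 219.0 to 258.9) and Alb (641.0 against 102.7 to 183.6), and low for the hybridization controls (12.39 against 13.10 to 13.32 on the log2 scale). Animal 3 of that group was low for Nos3 (540.1 against 1189 to 1524) and Ppara (1704.7 against 2344 to 2636). Animal 1 was high for Myh7 (93242 against 40617 to 49595) and for the difference between the Gapdh 3′ and 5′ probe sets (0.011 against -0.17 to -0.13), and animal 4 was low for the called Ift88 probe set (2079 against 2835 to 3159). In the alpha-tocopherol group, animal 3 was low for Psmb5 (3884 against 4805 to 5199.7) and for the called Ak3 probe set (563 against 693 to 752), and animal 1 was low for the called Mrpl45 probe set (3092 against 3601 to 3700.2).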

How the results depend on the processing

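The count of 42 calls became 11 without a filter on dim probe sets, 64 with a stricter filter, 23 with arrays centred on their median, 11 with eBayes without trend and robust settings and 7 with array weights. It became 0 with only the 10 supplemented hearts (1071 probe sets at an unadjusted limma p below 0.05), 0 with the hybridization control covariate (820) and 0 with the 18S rRNA covariate (587). Leaving out 1 heart gave 0 to 79. A smaller and a larger added constant gave 43 and 40 and quantile normalisation 40. Sample numbers did not pair the hearts, as same-numbered hearts correlated at -0.08 to 0.02 in their deviations, and with the replicate block 34 were called, 26 of them among the 42. The covariates left the typical size of the 42 differences at 1.06 and 0.878 times and raised their standard errors 1.40 and 1.30 times. No called direction reversed where it was tested. The 18S rRNA difference ranged from -1.32 to -0.80 without 1 heart, and was no longer past the threshold without alpha-tocopherol animal 5, at -1.05. Some list medians near 0 changed sign between settings, such as that of fatty acid oxidation, which was -0.03 to 0.22 over the alternatives. Of the array measures, the Gapdh difference was past the threshold without alpha-tocopherol animal 4 or mixed-group animal 1 but not without any other 1 heart, at -0.16 to -0.11. With 5 hearts a group and dim signals close to the added constant, small differences of dim genes were not detectable.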

Other observations

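Of 14 tested genes of antigen presentation 0 were called and 11 lay below 0, against 2674 of all 5663 named genes. The median of the 14 was -0.26 (-0.36 to -0.12 over the alternatives). H2-Aa, a class II alpha chain, was 228 to 3956 with both tocopherols and 1323 to 6171 with alpha-tocopherol, at -1.34 ± 0.66 (limma, adjusted p = 0.32). Ciita, the class II transactivator, was 209 to 768 and 429.5 to 935, at -0.76 ± 0.29 (limma, adjusted p = 0.20). The class II genes did not go 1 way: H2-Ab1, the beta chain that pairs with H2-Aa, read 0.36 ± 0.50, at 524 to 1646 and 282.5 to 2580.3, and H2-Eb1 -0.40 ± 0.26, at 2150.1 to 5031 and 3189.6 to 5496. Of 18 tested immediate early genes 0 were called and 14 lay above 0, against 2989 of all 5663 named genes. The median of the 18 was 0.18, and 0.03 with the hybridization control covariate. Egr1, a zinc-finger transcription factor, read 0.80 ± 0.27 (limma, adjusted p = 0.15).

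Of the 42 called probe sets, 4 had no single gene name. An unnamed probe set of relaxed design rules had the largest difference of all calls, -1.85 ± 0.34 (limma, adjusted p = 0.031), and kept its call in 17 of 22 alternatives, more than any named gene. It read 1223, 892, 3488, 717 and 921 with both tocopherols and 6306, 4908, 2281, 5206 and 5004 with alpha-tocopherol, so that animal 3 of each group lay within the other group's range.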
